A study of Mus musculus with 6 samples.

Results

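The transcripts described here are those of the mouse mitochondrial genome, a circular chromosome (chromosome M) of 16299 bases in the GRCm39 build. Rows of the deposited gene table were taken when their Ensembl identifier lay on chromosome M in the GENCODE mouse annotation. This gave 37 of the 55416 genes in the table, made up of 13 protein genes, 2 rRNA genes and 22 tRNA genes, and all 37 annotated genes of the chromosome were found. The rule used position only, and no measured value chose the members.

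The libraries were made from organoids grown from crypts of the duodenum and jejunum of 3 C57BL/6 mice with the genotype label WT. Organoids were cultured for 5 days and were either LDL-treated, with low-density lipoprotein at 50 μg/ml, or treated with PBS as the vehicle control, and the comparison asks what LDL does to gene expression in the crypt epithelium ex vivo. Each mouse gave 1 LDL library and 1 PBS library (n = 3 per group), called mouse 1, 2 and 3 after the replicate number. Each mouse is in both groups, so the mice do not differ between the groups. The genotype label was WT for all 3 mice, but the animal label of mouse 3 began with other letters than those of mice 1 and 2, and what this stands for was not tested.

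Total RNA was depleted of ribosomal RNA and sequenced from one end of each fragment. Reads assigned to genes ranged from 22061545 to 31073360 per library. Summed markers of epithelium (Epcam, Cdh1, Krt8, Krt18, Krt19 and Cldn7) were 88588 to 121838 normalized counts with LDL and 78600 to 83134 with PBS, without overlap. Fibroblast markers summed to at most 34.2, immune markers to at most 207, endothelial markers to at most 25.6 and smooth muscle markers to at most 23.2 normalized counts in any library. The LDL library of mouse 1 stood apart. Annotated nuclear rRNA genes took 7.62% of its reads and 3.03% in the PBS library of mouse 2, against 0.0836% to 0.226% in the other 4 libraries, and rows typed as miRNA took 5.57% of its reads against at most 0.287% elsewhere. For the mitochondrial protein genes and the nuclear subunits of the same complexes, counts of higher or lower genes are given with and without it. Most other results include it.

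Mitochondrial DNA encodes the hydrophobic core subunits of the respiratory chain and of ATP synthase, together with the rRNAs and tRNAs that translate them inside the organelle, whereas most other subunits are encoded in the nucleus. Both strands are transcribed as long polycistronic precursors, and tRNAs placed between the other genes are cut out to free the mRNAs and rRNAs. The heavy-strand promoter gives most genes, the light-strand promoter gives ND6 and a group of tRNAs, and mature levels depend on transcription and on the stability of each RNA. Intestinal stem cells and Paneth cells are known to differ in their use of mitochondrial respiration.

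Some mitochondrial genes share bases, and a read over bases shared on the same strand lies on both genes. The longest overlap is that of mt-Atp8 and mt-Atp6, which encode ATP synthase subunits and are read from a single bicistronic mRNA, and it covers 43 bases at chrM:7927-7969. It is shown with 20 bases on either side (chrM:7907-7989, plus strand, GRCm39), with the bases that lie in both genes in capitals, because it bears on the count of both genes.
mt-Atp8/mt-Atp6: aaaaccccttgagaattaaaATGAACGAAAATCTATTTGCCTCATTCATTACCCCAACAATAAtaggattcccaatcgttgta
The capitals start with the ATG of mt-Atp6. A pair of further overlaps concerns complex I genes, mt-Nd4l with mt-Nd4 over 7 bases of the same strand and mt-Nd5 with mt-Nd6 over 14 bases of opposite strands. In all, 9 pairs of neighbouring mitochondrial genes overlapped, and the other 6 shared 1 to 3 bases each.

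Transcripts of the mitochondrial genome took a similar part of all reads on genes in both groups. They made up 9.81% of the reads on genes in mouse 1, 9.06% in mouse 2 and 9.82% in mouse 3 with LDL. With PBS they made up 10.2%, 9.72% and 8.66% in mice 1, 2 and 3. The ranges overlapped, and the means of 9.57% ± 0.44 with LDL and 9.54% ± 0.81 with PBS (SD, n = 3) differed by 0.028 percentage points, less than the spread between mice. Counting error was far smaller than that spread, with a 95% Wilson interval of 9.80% to 9.83% for LDL in mouse 1. As a sum over chosen genes, this percentage was given no test. In whole-organoid RNA, fewer mitochondrial transcripts per cell and fewer cells rich in mitochondria cannot be told apart.

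The 13 protein genes alone took 6.18%, 6.32% and 6.32% of the reads with LDL and 6.46%, 6.17% and 5.78% with PBS in mice 1, 2 and 3. The LDL values lay inside the PBS range on this scale, which counts the nuclear rRNA and miRNA rows too. Of the reads on protein-coding genes only, they took 9.05%, 7.73% and 7.74% with LDL. With PBS they took 8.02%, 8.003% and 7.096%. On that scale LDL in mouse 1 lay above the PBS range, and LDL was above PBS in mice 1 and 3 and below it in mouse 2. Of all reads on genes, the rRNA genes took 3.63%, 2.74% and 3.51% with LDL and 3.77%, 3.55% and 2.88% with PBS. This ran in opposite directions in mice 2 and 3, with LDL below PBS in mouse 2 and above it in mouse 3.

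Levels per kilobase of gene differed far more between mitochondrial genes than between treatments. The scale in this paragraph is the normalized count divided by gene length in kilobases, as the mean ± SD over all 6 libraries. The large rRNA gene mt-Rnr2 stood highest at 491540 ± 70458, and mt-Co1, the catalytic core of cytochrome c oxidase (complex IV), followed at 428837 ± 30688. These neighbours overlapped, with mt-Rnr2 above mt-Co1 in 5 of 6 libraries. The complex IV subunit mt-Co2 came next at 261087 ± 15674, below mt-Co1 in every library. Then followed mt-Nd1 of complex I (176877 ± 32708), mt-Co3 of complex IV (145796 ± 16680), mt-Atp6 (138223 ± 11060), the cytochrome b gene mt-Cytb of complex III (121775 ± 14568) and the small rRNA gene mt-Rnr1 (104536 ± 30011). The ranges of neighbours in this stretch overlapped. The lower part of the order held mt-Nd4 (71286 ± 20648), mt-Nd3 (57216 ± 9980), mt-Nd5 (42182 ± 15408), mt-Nd2 (41885 ± 14741) and mt-Atp8 (39852 ± 5056). Neighbours here overlapped too, and mt-Nd5 was above mt-Nd2 in 3 of 6 libraries only. At the bottom stood mt-Nd4l (24308 ± 3716) and the light-strand gene mt-Nd6 (22985 ± 8780), which overlapped each other and lay below mt-Atp8 in every library. The protein genes thus spanned an 18.66-fold range of mean level. This order holds for the rows as deposited. Nuclear copies described further on share reads with mt-Co1, mt-Co2, mt-Atp8, mt-Atp6, mt-Co3, mt-Nd3, mt-Nd4l and mt-Nd4. If such reads had been divided between the rows, adding the copy rows back would put mt-Co1 at 568192 and mt-Co2 at 523615, both above mt-Rnr2. It would also put mt-Atp6 at 319056 and mt-Co3 at 291672, above mt-Nd1. By the same step mt-Nd3 (115639) and mt-Nd4 (111334) would pass mt-Rnr1, and mt-Nd4l (49680) would pass mt-Nd5.

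**Figure D1:**
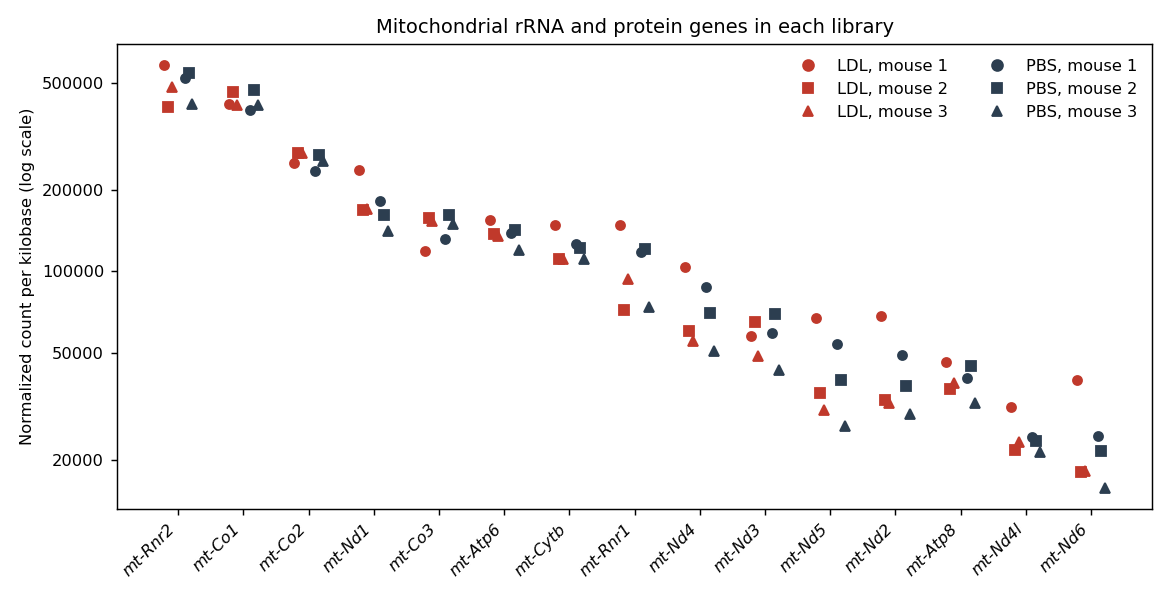
Normalized counts per kilobase (log axis) of the 2 rRNA and 13 protein genes of the mitochondrial genome, ordered by mean level, with 1 point per library, colour for treatment and shape for mouse. LDL and PBS points overlap for every gene, and the circles of mouse 1 lie highest in both treatments for mt-Nd2, mt-Nd4, mt-Nd5 and mt-Nd6.

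No mitochondrial gene passed the test for LDL against PBS. Of the 37 genes, 18 had a mean of at least 10 normalized counts and were tested, namely the 13 protein genes, both rRNA genes and the tRNA genes mt-Tp, mt-Tc and mt-Tn. Calls needed more than a 1.5-fold change together with an adjusted p under 0.05. In limma with Benjamini-Hochberg adjustment over all 18459 tested genes, 0 of 18 were called, against 1.27% of all genes, and 0 of 18 reached an unadjusted p under 0.05. With the mouse as a replicate block 0 of 18 were called, against 9.14% of all genes, and edgeR and DESeq2 called 0 as well. The block brought no mitochondrial gene under an adjusted p of 0.05 at any fold change, where 8.27% of all genes were higher and 7.45% were lower by that rule. The smallest adjusted p among the 18 genes in limma was 0.408 without the block and 0.222 with it, both for mt-Tn.

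The differences of the protein genes were small and mostly above 0, and this lean depended on which libraries and mice entered. Their log2 fold changes ran from -0.05 for mt-Co3 to 0.24 for mt-Nd1, with a median of 0.07 beside -0.02 over all genes tested. The mean log2 value was higher with LDL for 12 of the 13 protein genes, as it was for 47.6% of all genes. Without the LDL library of mouse 1, 5 of the 13 were higher, against 49.7% of all genes, and the median was -0.04. Without the PBS library of mouse 3, 5 of the 13 were higher as well, against 47.9% of all genes, with a median of -0.02. Either of these fits kept the other library of the same mouse. With whole mice left out, 5, 12 and 10 of the 13 were higher without mouse 1, 2 and 3. Their medians were -0.0005, 0.19 and 0.05, beside -0.005, -0.03 and -0.02 over all genes. With all 6 libraries, the count was 10 of 13 under upper-quartile scaling and 9 of 13 with scaling to library totals. In no protein gene were the LDL values clear of the PBS values, a separation seen in 24.2% of all genes. The standard errors of the protein genes lay between 0.14 for mt-Atp8 and 0.35 for mt-Nd5, so that the 95% intervals of 6 of them held a change of 1.5-fold in at least 1 direction.

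**Figure D2:**
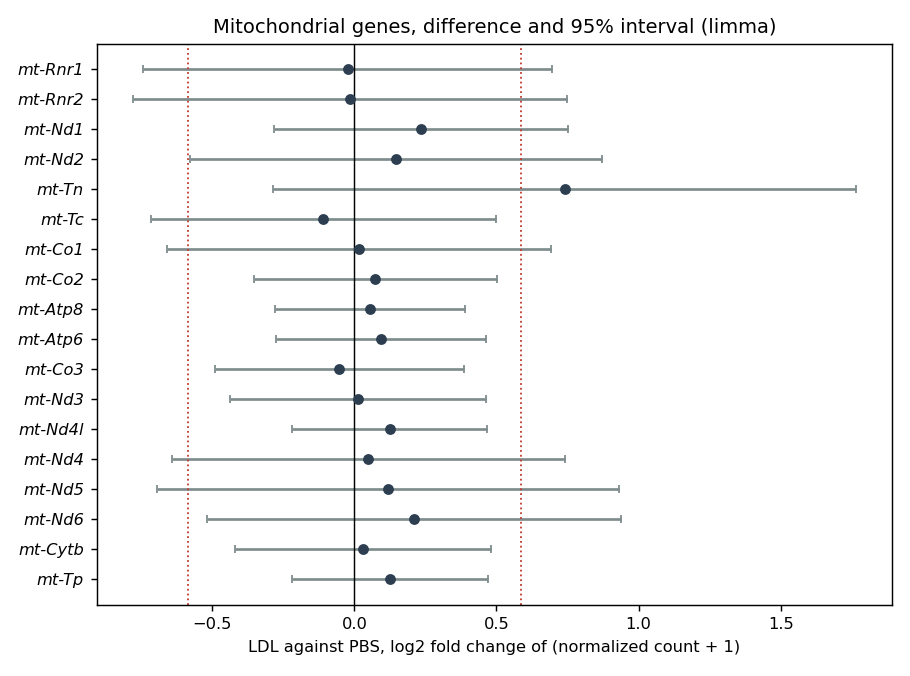
Log2 fold change of LDL against PBS (limma, on normalized count + 1) for the 18 tested mitochondrial genes in genome order, with bars for the 95% interval and dotted lines at a 1.5-fold change. Every interval crosses 0, and mt-Tn has the widest, from -0.29 to 1.77.

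The 7 complex I genes encode core subunits of NADH dehydrogenase, the entry point of electrons from NADH. mt-Nd1 had 227358, 161001 and 162735 normalized counts with LDL and 174417, 155417 and 134700 with PBS in mice 1, 2 and 3. It was higher with LDL in all 3 mice, yet PBS in mouse 1 lay above LDL in mice 2 and 3, and the log2 fold change was 0.24 ± 0.22 (SE, limma adjusted p = 0.62). mt-Nd6, the only protein gene on the light strand, had 20632, 9338 and 9430 with LDL and 12765, 11212 and 8198 with PBS. Its log2 fold change of 0.21 ± 0.31 (SE, limma adjusted p = 0.768) came from a LDL over PBS log2 ratio of 0.69 in mouse 1, -0.26 in mouse 2 and 0.20 in mouse 3.

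mt-Nd5 had 122616, 64382 and 55735 normalized counts with LDL and 98021, 71993 and 48890 with PBS. Both libraries of mouse 1 stood above all 4 others, and the treatment difference was 0.12 ± 0.35 on the log2 scale. mt-Nd2 followed the same order of mice, with 71157, 34772 and 33834 with LDL and 51082, 39154 and 30860 with PBS. So did mt-Nd4, with 143095, 82633 and 76330 with LDL and 120710, 96759 and 69865 with PBS. The short genes mt-Nd4l and mt-Nd3 ranged from 6361 to 9368 and from 15036 to 24301 normalized counts, with log2 fold changes of 0.12 and 0.01. For mt-Nd3, mouse 2 was highest and mouse 3 lowest in both treatments.

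The complex IV genes encode the subunits that carry the redox centres of cytochrome c oxidase and their partner. mt-Co1 had 643653, 714043 and 639687 normalized counts with LDL and 611209, 729224 and 637505 with PBS, a log2 fold change of 0.02 ± 0.29. mt-Co2 had 172225, 188449 and 188598 with LDL and 161441, 184650 and 176140 with PBS. It was higher with LDL in all 3 mice, by log2 ratios of 0.093, 0.029 and 0.099, all smaller than its range of 0.16 between mice. In total, 2 of 13 protein genes (mt-Nd1 and mt-Co2) were higher in all 3 mice and 0 were lower in all 3, against 24.2% and 26.8% of all genes. mt-Co3 had 93076, 123467 and 120909 with LDL and 103841, 126769 and 117763 with PBS, and its log2 fold change was -0.05 ± 0.19.

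The remaining protein genes overlapped between the groups too. mt-Cytb ranged from 126758 to 169810 normalized counts with LDL and from 127687 to 144365 with PBS, with a log2 fold change of 0.03 ± 0.19. mt-Atp6 ranged from 92288 to 105411 with LDL and from 82046 to 96677 with PBS (log2 fold change 0.09 ± 0.16), and mt-Atp8 from 7501 to 9437 and from 6652 to 9108 (0.05 ± 0.14). All 3 were highest in the LDL library of mouse 1.

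Mouse by mouse, the direction was not shared. LDL was above PBS for 11 of the 13 protein genes in mouse 1, for 2 of 13 in mouse 2 and for 12 of 13 in mouse 3, with median log2 ratios of 0.23, -0.12 and 0.13. In a fit of mice 1 and 3 alone with the block, chosen after the values were seen, 5 mitochondrial genes (mt-Rnr1, mt-Nd2, mt-Atp8, mt-Nd4l and mt-Nd6) were higher with LDL at an adjusted p under 0.05 (limma, Benjamini-Hochberg), against 14.2% of all genes. None of these exceeded 1.5-fold, the greatest being 1.36-fold for mt-Nd6 with an adjusted p of 0.0013.

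The rRNA genes showed no common direction. mt-Rnr1, the small-subunit rRNA, had 141706, 68831 and 89583 normalized counts with LDL and 112980, 115527 and 70363 with PBS in mice 1, 2 and 3. mt-Rnr2, the large-subunit rRNA, had 919874, 641042 and 764024 with LDL and 825479, 857536 and 657745 with PBS. Both were lower with LDL in mouse 2 and higher in mice 1 and 3. Their log2 fold changes of -0.02 ± 0.31 and -0.02 ± 0.33 (SE) had limma adjusted p values of 0.979 and 0.988. Per read on mitochondrial protein genes there were 0.587, 0.434 and 0.555 reads on mitochondrial rRNA genes with LDL and 0.583, 0.575 and 0.498 with PBS. Ribosomal RNA had been removed before sequencing, and nuclear rRNA varied from 0.0836% to 7.62% of the reads between libraries. The part that this removal plays in the mitochondrial rRNA levels was not tested.

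The composition of mitochondrial mRNA set mouse 1 apart in both treatments. Complex I genes held 34.0% of the reads on the 13 protein genes with LDL and 30.1% with PBS in mouse 1, 23.3% and 23.99% in mouse 2, and 23.5% and 21.5% in mouse 3. Complex IV genes held 50.3% and 54.5% in mouse 1, 62.7% and 61.5% in mouse 2, and 61.7% and 63.7% in mouse 3. Mouse 1 was thus highest for complex I and lowest for complex IV in both treatments. mt-Co1 alone held 35.6% with LDL and 38.0% with PBS in mouse 1, against 41.6% to 43.7% in the other 4 libraries. Complex V genes held 6.07% to 6.51% in every library.

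The range between the 3 mouse means exceeded the treatment difference for 18 of 18 tested mitochondrial genes, as it did for 67.1% of all genes. On the log2 scale this range was 1.07 for mt-Nd5, a 2.10-fold difference, 0.90 for mt-Nd2, 0.88 for mt-Nd6 and 0.85 for mt-Nd4, with mouse 1 highest and mouse 3 lowest in each. A limma F test between mice, chosen after these values were seen, called 0 of 18 at an adjusted p under 0.05, against 2.18% of all genes, and mt-Nd5 came nearest with an adjusted p of 0.051. The difference between mice in these 4 genes was therefore not past the threshold with 2 libraries per mouse.

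**Figure D3:**
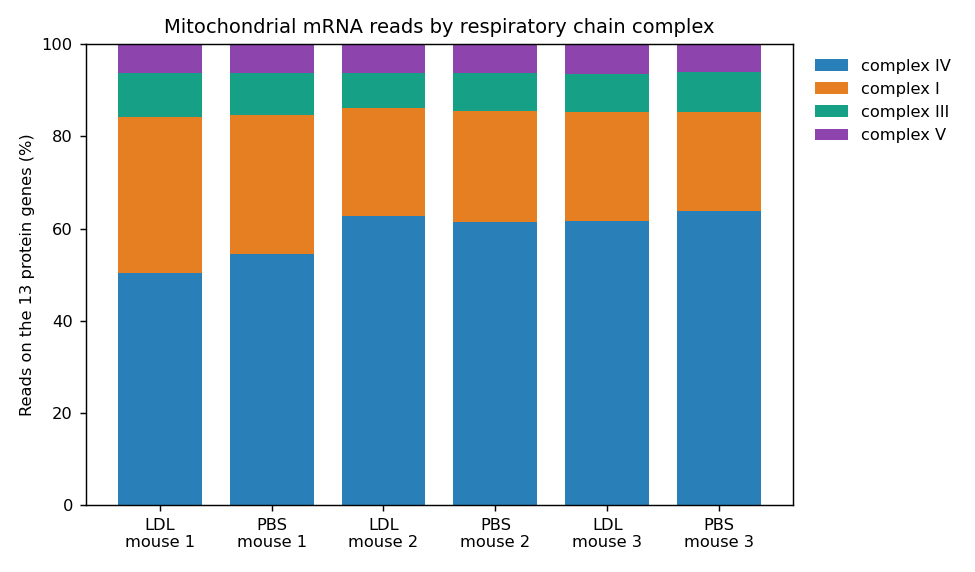
Percentage of the reads on the 13 mitochondrial protein genes that fell on genes of complexes I, III, IV and V, with 1 stacked bar per library and the libraries of each mouse side by side. The complex I segment is 34.0% and 30.1% in mouse 1 and 21.5% to 23.99% in mice 2 and 3.

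Few reads were assigned to mitochondrial tRNA genes. No read of full length fits inside any of the 22 tRNA genes. Of these genes, 13 had no read in any library and 9 had at least 1, namely 7 of the 8 light-strand tRNA genes and 2 of the 14 heavy-strand ones, where no library held more than 2 reads. The tRNA rows together held 234 to 448 reads per library. Counting can bear on these values. For 9 of the 14 heavy-strand and 1 of the 8 light-strand tRNA genes, no read-length window touched them without touching a neighbour on the same strand. The light-strand gene was mt-Tc, which held 21 to 52 reads per library all the same. The heavy-strand genes mt-Ti, mt-Tm, mt-Tw, mt-Td and mt-Tt had 37 to 67 windows of their own by this measure and no reads. A count of 0 allows up to 3 assigned reads in a library, which covers counting error only and says nothing of reads that also lie on a neighbour. The share of the strand difference that is set by the counting was not tested. The 3 tRNA genes that passed the filter all lie on the light strand, and their sequences are shown 5′ to 3′ as transcribed (minus strand, GRCm39) with the anticodon in capitals, at chrM:15356-15422, chrM:5192-5257 and chrM:5089-5159.
mt-Tp: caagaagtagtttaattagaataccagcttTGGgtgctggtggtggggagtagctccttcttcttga
mt-Tc: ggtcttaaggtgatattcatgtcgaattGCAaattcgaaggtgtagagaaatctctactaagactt
mt-Tn: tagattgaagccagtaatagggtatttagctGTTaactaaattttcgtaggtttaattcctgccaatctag
These are the tRNAs for proline, cysteine and asparagine.

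mt-Tp, next to the control region, had 295, 232 and 318 normalized counts with LDL and 271, 245 and 252 with PBS in mice 1, 2 and 3. mt-Tc had 25.6, 35.5 and 40.1 with LDL and 33.7, 32.3 and 42.3 with PBS. Both overlapped between the groups, with log2 fold changes of 0.13 ± 0.15 and -0.11 ± 0.26 (SE). mt-Tn had 13.4, 10.003 and 15.9 with LDL and 11.2, 3.73 and 8.96 with PBS. It was higher with LDL in all 3 mice, but PBS in mouse 1 lay above LDL in mouse 2, and the log2 fold change of 0.74 ± 0.44 (SE) had a limma adjusted p of 0.408. Its 95% interval of -0.29 to 1.77 holds both 0 and a change of 1.5-fold. The other 19 tRNA genes had means below 10 and were not tested, the highest being mt-Te with 2.77.

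The nucleus holds copies of mitochondrial DNA that share reads with the genes above. A search of GRCm39 with every read-length window of chromosome M found 7 such segments. The longest lies on chromosome 1 (chr1:24650616-24655265, minus strand, 4650 bases) and copies chrM:6394-11042, from the end of mt-Co1 into mt-Nd4. It was 99.96% identical to chromosome M, with 2 differences in all, a substitution in mt-Nd3 (T9461C, with positions counted from 1 on chromosome M, the chromosome M base first and the copy base second) and a 1-base insertion within mt-Tr. Of the read-length windows inside mt-Co2, mt-Atp8, mt-Atp6, mt-Co3 and mt-Nd4l, 100% had an exact nuclear copy. The percentage was 98.8% for mt-Nd3, 60.7% for mt-Nd4, 30.7% for mt-Co1, 3.09% for mt-Nd2 and 1.15% for mt-Rnr2. It was 0 for mt-Nd1, mt-Nd5, mt-Nd6, mt-Cytb and mt-Rnr1, whose reads are unique to chromosome M by this measure.

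Some rows of the chromosome 1 copies nearly repeated those of the mitochondrial genes. Gm28437, the copy of mt-Co3, held 100.05% to 100.06% of the reads of mt-Co3, a difference of 47 to 86 reads per library. Had each read gone at random to either row, the SD of this difference would be at least 391 reads. The mt-Co3 pair thus agreed more closely than random assignment would give. Gm28661 held 100.4% to 100.6% of the reads of mt-Co2 and Gm10222 held 103.9% to 105.3% of those of mt-Nd4l, always slightly more than the mitochondrial gene. Whether each shared read was counted in full at both places or divided equally was not tested. Atp6-ps held 128.8% to 132.6% of the reads of mt-Atp6, and the 43 bases printed above lie in both mt-Atp8 and mt-Atp6, whereas no second gene covers them in the copy. The shorter copies Gm28439 and Gm29216 held 54.6% to 59.5% of the reads of mt-Nd4 and 28.9% to 33.9% of those of mt-Co1. They share 876 of the 1378 bases of mt-Nd4 and 492 of the 1545 bases of mt-Co1. Per kilobase, Gm28439 had a mean of 62999 normalized counts beside 71286 for mt-Nd4. Gm29216 had 437609 beside 428837 for mt-Co1.

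Together the chromosome 1 copy rows took 2.41% to 2.94% of all reads on genes, which the percentages above leave out of the mitochondrial part. Over the copy rows of chromosomes 1 and 2, log2 fold changes of LDL against PBS lay between -0.06 for Gm13340 and 0.21 for Gm13339. These are chromosome 2 copies of mt-Co1 and of part of mt-Nd2, and no copy row was called. Gm13341, the chromosome 2 copy of mt-Co2, held 7.27% to 7.90% of its reads and had a log2 fold change of 0.07, as mt-Co2 did. As the copies share sequence with the mitochondrial genes, they are not independent evidence.

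**Figure D4:**
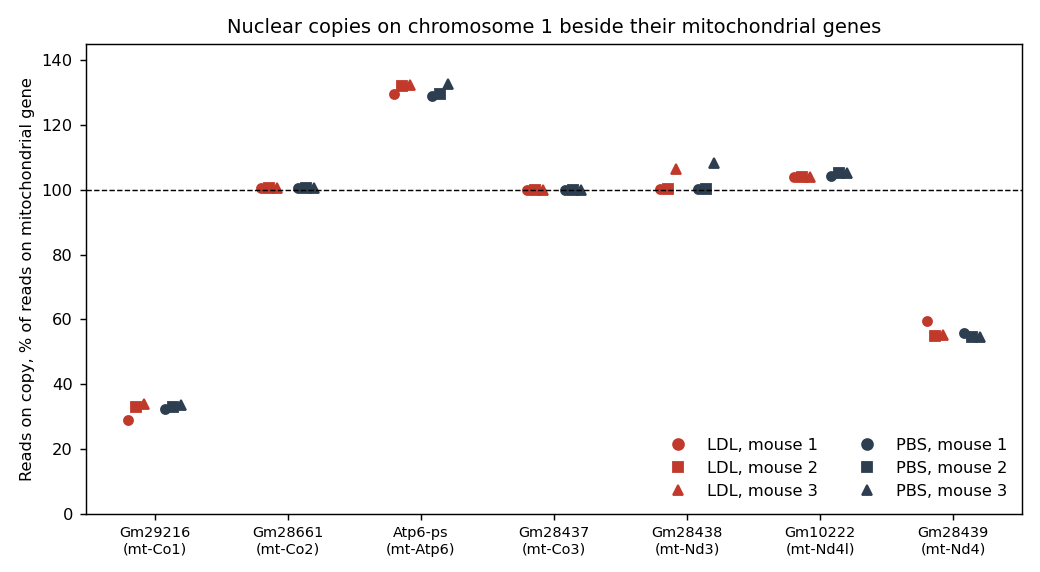
Reads on each chromosome 1 copy as a percentage of the reads on its mitochondrial gene (named in brackets), with 1 point per library and a dashed line at 100%. Gm28661 and Gm28437 lie on the line in all 6 libraries, Atp6-ps lies above it, and Gm28438 stands off the line in the 2 libraries of mouse 3 (106.4% and 108.3%) and near it in the other 4.

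The mt-Nd3 copy set mouse 3 apart. Gm28438 had 37 to 63 reads more than mt-Nd3 in the 4 libraries of mice 1 and 2, or 100.18% to 100.26% of its reads. In mouse 3 it had 1281 more with LDL and 1538 more with PBS, or 106.4% and 108.3%. The excess was thus present in both treatments of mouse 3. The animal label of this mouse, as stated above, began with other letters, and its bearing on the excess was not tested. This copy holds the only substitution against the reference, shown with 25 bases on either side as chrM:9436-9486 (plus strand) and chr1:24652173-24652223 (minus strand), both GRCm39, with the differing base in capitals.
chromosome M 9461: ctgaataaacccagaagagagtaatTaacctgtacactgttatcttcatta
chr1 copy 9461: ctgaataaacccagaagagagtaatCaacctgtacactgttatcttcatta
The base that each mouse carries at this position was not tested, as reads were not analysed here. mt-Nd3 was also lowest in mouse 3, with 16859 and 15036 normalized counts against 20095 to 24301 in the others.

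Nuclear subunits of the same complexes had lower values with LDL. All 75 tested nuclear subunits of complexes I, III, IV and V had a lower mean log2 value with LDL, as did 52.4% of all genes, and their median log2 fold change was -0.31. None of the 75 was called in limma. With the block, 26 of 75 were lower at an adjusted p under 0.05 with any fold change, against 7.45% of all genes. Beside 9.14% of all genes called with the block, 2 of the 75 were called. These were Ndufb11, an accessory subunit of complex I (log2 fold change -0.68, limma adjusted p = 0.018 with the block), and Atp5if1, an inhibitor of ATP synthase hydrolysis (-0.64, limma adjusted p = 0.0049 with the block). In all 3 mice, 56 of 75 were lower, against 26.8% of all genes. The counts depended on which libraries and mice entered. Without the LDL library of mouse 1, 66 of 75 were lower, against 50.3% of all genes, with a median of -0.14. That fit kept the PBS library of mouse 1. In mice 2 and 3 alone, 72 of 75 were lower, against 50.8% of all genes, with a median of -0.22. With the block, 3 of 75 passed at any fold change in these mice, against 3.09% of all genes. In mice 1 and 3 alone, with the block, 66 of 75 passed, against 16.6% of all genes.

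By complex, the values of the nuclear subunits were alike. In complex I, 37 of 37 were lower with a median log2 fold change of -0.31. In complex III, 9 of 9 were lower with a median of -0.23, and Uqcrq had the greatest change (-0.53, limma adjusted p = 0.020 with the block). In complex IV, 11 of 11 were lower with a median of -0.37, and Cox5b had the greatest change (-0.44, limma adjusted p = 0.029 with the block). In complex V, 18 of 18 were lower with a median of -0.32. Complex II, which has no mitochondrially encoded subunit, had 4 of 4 lower with a median of -0.32, and Sdhc had the greatest change (-0.43, limma adjusted p = 0.032 with the block).

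Summed over their subunits, the mitochondrial and the nuclear parts of a complex could be set side by side in each mouse. For complex IV, nuclear subunits summed to 26832, 45874 and 34158 normalized counts with LDL and 39534, 49434 and 45694 with PBS in mice 1, 2 and 3. The LDL over PBS ratio was 0.679, 0.928 and 0.748 for these and 1.04, 0.986 and 1.02 for the mitochondrial subunits. For complex I, the ratio was 0.711, 0.925 and 0.772 for nuclear and 1.27, 0.939 and 1.15 for mitochondrial subunits. For complex V it was 0.714, 0.953 and 0.743 for nuclear and 1.12, 0.957 and 1.13 for mitochondrial subunits. Mice 1 and 3 thus had nuclear sums below and mitochondrial sums above PBS in these 3 complexes, whereas in mouse 2 both parts stood slightly below PBS. For complex III, where mt-Cytb is the only mitochondrial subunit, the ratio was 0.805, 0.984 and 0.819 for nuclear and 1.18, 0.907 and 0.998 for mitochondrial parts.

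**Figure D5:**
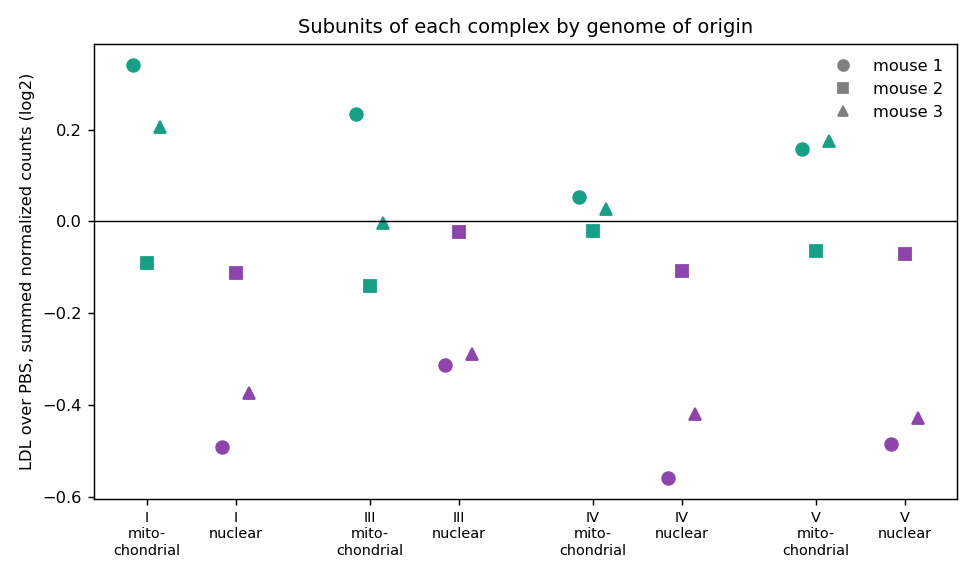
Log2 ratio of LDL over PBS for summed normalized counts of the mitochondrial (green) and nuclear (purple) subunits of complexes I, III, IV and V, with 1 point per mouse. Nuclear sums lie below 0 in every mouse, and mitochondrial sums lie on both sides of 0.

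The sum of the 13 protein genes was 10.6, 6.01 and 7.54 times the sum of the 75 nuclear subunits with LDL and 6.79, 5.89 and 5.45 times with PBS in mice 1, 2 and 3. It was higher with LDL in each mouse, and the groups overlapped because LDL in mouse 2 lay below PBS in mouse 1. As a ratio of sums over chosen genes, it was given no test. Of the RNAs that stay in the nucleus, Malat1, Neat1 and Kcnq1ot1 summed to 133781, 68086 and 117128 normalized counts with LDL and 82118, 78692 and 73035 with PBS. This sum was high in the same 2 LDL libraries, those of mice 1 and 3, in which the nuclear subunits were low. Of the 3 RNAs, Neat1 passed with the block (log2 fold change 0.99, limma adjusted p = 0.0098 with the block). The part of RNA recovery or quality in these sums was not tested.

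Genes that maintain and express mitochondrial DNA were called no more often than genes at large. Of all genes, 1.27% were called without the block and 9.14% with it. For transcription and replication, which includes the polymerase gene Polrmt and the packaging factor Tfam, 0 of 20 were called with or without the block, and the median log2 fold change was 0.00. The member with the greatest change was Primpol, a primase-polymerase (-0.40, limma adjusted p = 0.121 without the block and 0.0485 with it, short of 1.5-fold). For RNA processing and stability, 35 of 36 listed genes were tested, with a median of -0.10. Hsd17b10, which is also a subunit of mitochondrial RNase P, fell with the block (-0.59, limma adjusted p = 0.019), and no other member was called. Mitochondrial ribosomal proteins had 75 of 81 tested members lower and a median of -0.11, and none was called. Mrpl23 had the greatest change there (-0.50, limma adjusted p = 0.221 without the block and 0.0495 with it, short of 1.5-fold).

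Of the 11 regulators of mitochondrial biogenesis, 1 was called with the block, near the 9.14% of all genes, and 0 were called without it. That 1 was Ppard, which rose (log2 fold change 0.76, limma adjusted p = 0.0078 with the block). Ppard encodes the nuclear receptor PPARδ, which controls genes of fatty acid oxidation. It had 1220, 568 and 1048 normalized counts with LDL and 615, 440 and 551 with PBS in mice 1, 2 and 3, with PBS in mouse 1 above LDL in mouse 2. The median of the list was 0.00, and its summed level ran from 15713 to 16281 normalized counts with LDL and from 15287 to 15890 with PBS.

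Some cell type markers passed the test where no mitochondrial gene did. Goblet cell markers summed to 29618 to 36283 normalized counts with LDL and 51769 to 56970 with PBS, without overlap, and 4 of 6 were called in limma (Spink4, Fcgbp and Agr2 lower, Clca1 higher), against 1.27% of all genes. Of the 6 epithelial markers 0 were called in limma without the block and 2 (Krt8 and Krt18, higher) with it. Of 7 enterocyte markers 1 was called, Alpi, with a log2 fold change of 2.13 (limma adjusted p = 0.0083), and 4 were called with the block (Alpi, Fabp2 and Apoa4 higher, Lct lower), as were 5 of the 6 goblet cell markers, against 9.14% of all genes. The enterocyte sum overlapped between the groups, at 24725 to 55403 with LDL and 22814 to 50021 with PBS. In both treatments the enterocyte sum was highest in mouse 2. No member of the Paneth cell, enteroendocrine, tuft or stem cell lists was called in limma without the block. With the block 3 of 5, 0 of 5, 1 of 3 and 3 of 4 were called in these lists, beside the same 9.14% of all genes. Their part in the mitochondrial values was not tested.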

How the data were processed

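RNA from 6 organoid libraries was sequenced. Per the labels and the methods of the study, ribosomal RNA was removed with Ribozero, libraries were made with a TruSeq Stranded kit, and the authors aligned reads to GRCm39 with STAR 2.7.10b, counted them with featureCounts and normalized them with DESeq2. The strand and multi-mapping settings of the counting are not given in the sources used here. The deposited values are read counts divided by size factors, a signal per gene that is not scaled to length. Multiplying back gave whole reads for 100% of values (tolerance 0.001). Depth is given above as reads on genes. Of 55416 identifiers, 54749 matched the GENCODE annotation.

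Genes with a mean of at least 10 normalized counts (18459) were tested on log2(normalized count + 1) with limma 3.58.1 (R 4.3.3) and Benjamini-Hochberg adjustment, so that fold changes of low genes are understated. Alternatives were a replicate block, other pseudocounts, filters and scalings, left-out libraries, edgeR 4.0.16 and DESeq2 1.42.0. The fits were tested on simulated data. The same animal gave both libraries of a replicate number, and deviations from group means correlated at 0.48, 0.42 and 0.46 within mice 1, 2 and 3. Named genes were all protein and rRNA genes of chromosome M, tRNA genes with a mean of at least 10, nuclear copies, and from each pathway list the called members or that with the greatest change. Members, lists and alternatives were chosen with earlier results of these data known, and the fits without mouse 1 or 2, the blocked fits without 1 mouse and the F test between mice, and the levels with copy rows added, were added after the values were seen. Nuclear copies were found by exact match of windows as long as a read and alignment to GRCm39. Sequences come from that genome.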

Additional observations from a re-analysis of the deposited data

How the results depend on the processing

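No mitochondrial gene was called in any of the 25 fits. The paired fit with the mouse as a replicate block gave 0 genes higher and 0 lower, a median log2 fold change of 0.07 for the protein genes, and changed no other call among mitochondrial genes. Leaving out libraries or mice moved that median between -0.04 and 0.19. Leaving out each library in turn moved the difference in mitochondrial percentage of reads between -0.41 and 0.38 percentage points. That difference was not tested with whole mice left out. Precision is limited by 3 mice, and tRNA genes by read length and depth. None of the genes that changed sign was called, and the cause of each change of sign was not tested. In edgeR, edgeR with the block and DESeq2, mt-Rnr1 had log2 fold changes of 0.031, 0.0014 and 0.028. In edgeR, edgeR with the block, DESeq2 and DESeq2 with the block, mt-Rnr2 had 0.013, 0.0061, 0.0093 and 0.0016. Upper-quartile scaling and scaling to library totals gave -0.011 and -0.015 for mt-Co1 and -0.016 and -0.020 for mt-Nd3, and the latter gave -0.0014 for mt-Cytb. With libraries or mice left out, with or without the block, the ranges of log2 fold change were -0.31 to 0.34 for mt-Rnr1, -0.15 to 0.19 for mt-Rnr2, -0.20 to 0.33 for mt-Nd2, -0.24 to 0.072 for mt-Tc, -0.036 to 0.091 for mt-Co1, -0.072 to 0.22 for mt-Atp8, -0.13 to 0.078 for mt-Co3, -0.18 to 0.17 for mt-Nd3, -0.039 to 0.25 for mt-Nd4l, -0.23 to 0.23 for mt-Nd4, -0.23 to 0.36 for mt-Nd5, -0.17 to 0.45 for mt-Nd6 and -0.11 to 0.12 for mt-Cytb. The genes mt-Nd1, mt-Co2, mt-Atp6, mt-Tn and mt-Tp kept a positive log2 fold change in every fit in which they were tested. Over all genes, 162 were called higher and 73 lower without the block, 1048 and 639 with it, 186 and 70 in edgeR, and 846 and 348 in DESeq2.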
